A study of Saccharomyces cerevisiae with 39 samples.

Results

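Of the 39 libraries of the series 6 were compared here, 3 of cells held for 40 min with rapamycin and 3 of cells held for 10 min with it, chosen by their labels and not by any measured value. The question was which genes went on losing or gaining new transcripts once the fastest responses to the removal of Abf1 had begun. All 6 came from a single Saccharomyces cerevisiae strain of the BY4742 background (MATalpha), in which Abf1 carries FRB, yEGFP and 3V5 tags, the ribosomal protein gene RPL13A is fused to FKBP12, TOR1 carries the tor1-1 allele and FPR1 is deleted. Rapamycin binds FRB to FKBP12, so that Abf1 leaves the nucleus with newly made ribosomal protein, while the tor1-1 allele and the loss of Fpr1 make growth insensitive to the drug. Both groups therefore received 7.5 µM rapamycin in DMSO, in synthetic complete medium with glucose, and differed in its duration. The wider series holds 11 times of this strain from 0 to 90 min and an untagged parent strain (WT) at 0 and 90 min, where the 0 min groups received DMSO alone for 90 min. The replicates were separate cultures of 1 tagged strain, so that the comparison has no second clone.

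RNA was labelled with 5 mM 4-thiouracil for 6 min before harvest and the labelled RNA was purified and sequenced, so that the counts follow recent synthesis more closely than the standing pool of RNA. Abf1 is an essential general regulatory factor of budding yeast that binds a split sequence motif in promoters and at replication origins and keeps the promoter clear of nucleosomes. Its known targets include genes of ribosome and RNA polymerase subunits, mitochondrial proteins and amino acid enzymes, and a single bound site can lie between genes transcribed in opposite directions. When such a factor leaves, transcription from its promoters is often lost, while some nearby or normally silent start sites become used.

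The 6 libraries held between 5321532 and 11266408 counts, against 3500982 to 11266408 over the whole series, and a floor of 3 counts stood at 0.266 to 0.564 CPM, which are counts scaled to a common library total. Of 6420 annotated features, 5722 had enough counts to be tested. CPM values use the effective library size that edgeR's TMM method gives. Library-to-library correlations of log2 values were at least 0.974 within the 10 min group and at least 0.958 within the 40 min group. The alpha-mating genes expected of the strain summed to 1063 to 3815 CPM at 10 min and 1334 to 3143 CPM at 40 min, while the 6 a-specific genes summed to 71.3 to 82.1 CPM and 65.1 to 73.8 CPM, mostly from STE6 (57.4 to 69.3 CPM), with MFA1, MFA2 and AGA2 at or below 1.33 CPM, and the deleted FPR1 had no counts. The replicate 1 libraries of the tagged strain stood apart: 61 genes lay at least 2-fold below the mean of replicates 2 and 3 at all 11 times, against 0 genes for each of the other replicate numbers. None of these 61 genes was called between 40 and 10 min. The main fit had no replicate term, so a steady offset of replicate 1 adds to the spread of these genes and makes a call less likely. The lack of calls among them therefore does not show that the offset had no effect. Counts of calls without the replicate 1 libraries are given beside the main counts.

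Between 10 and 40 min of Abf1 depletion the change ran mostly downwards. At an edgeR adjusted p under 0.01 and a fold over 1.5, 309 features were lower at 40 min, which is 5.4% of those tested, and 14 were higher, which is 0.245%. The lower features were 305 protein-coding genes and 4 small nuclear or nucleolar RNAs. Their median log2 fold change was -1.11, against 0.0026 over all features tested, with 190 more than 2-fold lower and 46 more than 4-fold lower. In 308 of the 309 every 40 min library lay below every 10 min library, the exception being SWM1, whereas such separation without any threshold on p was found for 12.5% of all features. The median of the higher genes was 1.26 on the log2 scale and all 14 had separate groups, a pattern found for 6.36% of all features. Separation follows largely from the calls, which were made on the same libraries, so in both directions it is no added support. The median at 0 min was 130 CPM for genes that fell, 17.4 CPM for genes that rose and 72.9 CPM for all features. These starting levels are tied to the calls, since a fall is easier to call from a high level. A gene that rose could pass the count filter through its later groups. The genes that rose were also mixed, with VIR1 at 590 CPM and ENO1 at 231 CPM at 0 min.

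The counts depended on the fit more for the higher than for the lower genes. DESeq2 called 306 lower and 14 higher, 299 and 14 of them shared with edgeR. The main fit had no replicate term, and with the replicate number as a block over all libraries the counts were 344 and 20. With the 6 libraries fitted alone the counts were 211 and 6, and without the tagged replicate 1 libraries, an alternative chosen after seeing the data, they were 330 and 17, with 293 and 12 of the original calls among them. Because the values are shares of the labelled RNA in bulk cultures, a fall in fewer cells cannot be told apart from a smaller fall in all cells, and a change in total synthesis would not be seen.

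**Figure D1:**
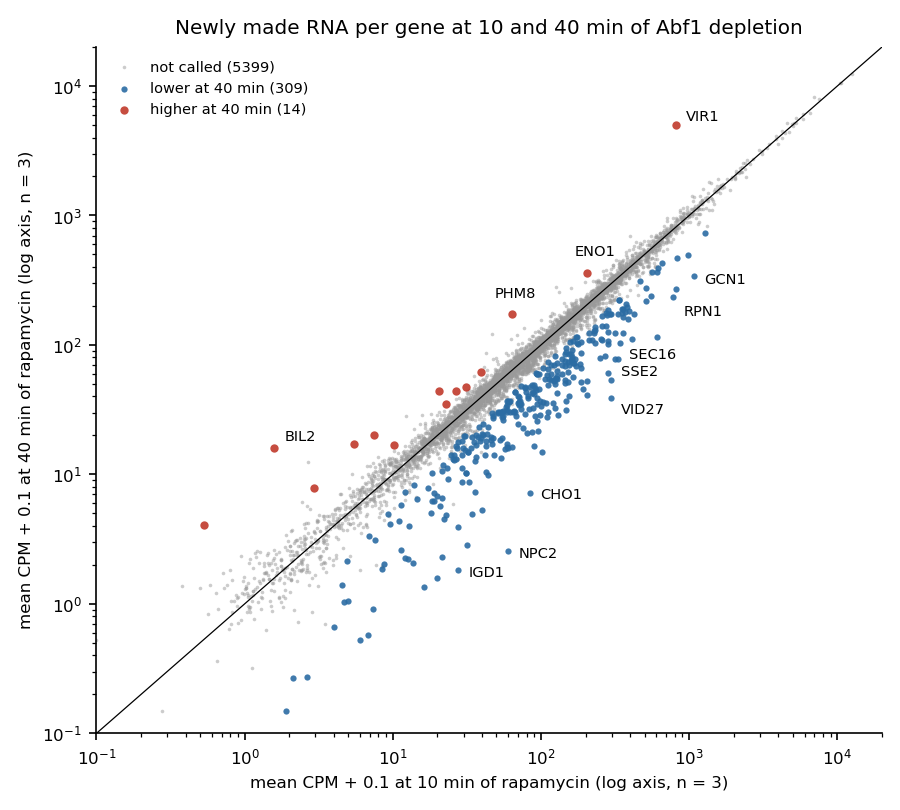
Mean CPM of each tested feature at 10 min (horizontal axis) and 40 min (vertical axis) of rapamycin, both on log axes with a pseudocount of 0.1 added, n = 3 libraries each. Blue points are the 309 features called lower and red points the 14 called higher, and grey points were not called. Points below the diagonal are lower at 40 min, with NPC2, IGD1 and CHO1 farthest below it among the labelled genes, and VIR1 stands far above it.

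Apart from genes fixed in advance, genes were picked for description by library only if called and without overlap between 10 and 40 min. Separate groups in such a gene are therefore a condition of its choice and no added support. Among genes with a mean of at least 50 counts at 10 min, the deepest fall was in NPC2 (YDL046W, IV:371240-371761 in the R64 assembly, plus strand), which encodes a sterol transporter of the vacuole. Its CPM was 38.3, 56.3 and 85.1 in the 10 min libraries and 2.40, 2.08 and 2.86 in the 40 min libraries. The groups were far apart, with the lowest 10 min library more than 10 times above any 40 min library, and NPC2 fell 24.6-fold (log2 fold change -4.62 ± 0.35 SE, edgeR adjusted p = 1.22e-11). NPC2 had already dropped to 47.6% of its 0 min mean at 10 min and ended at 1.94% of it at 40 min. IGD1 (YFR017C, VI:182274-182861, minus strand), an inhibitor of the glycogen debranching enzyme, started later. It stood at 19.8, 32.3 and 30.6 CPM at 10 min, or 118% of its 0 min mean, and at 1.03, 3.11 and 1.01 CPM at 40 min. The groups did not overlap and the fall was 15.5-fold (log2 fold change -3.96 ± 0.37 SE, edgeR adjusted p = 8.58e-10).

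Several deep falls were in housekeeping genes with no shared pathway. CHO1 (YER026C, V:207644-208474), the phosphatidylserine synthase, went from 65.8, 76.3 and 109 CPM to 7.19, 7.11 and 7.07 CPM. The 40 min libraries of CHO1 were nearly identical, and the fall was 11.7-fold (log2 fold change -3.55 ± 0.28, edgeR adjusted p = 1.63e-11). SMD1 (YGR074W, VII:635712-636152), which encodes an Sm core protein of the spliceosomal particles, went from 15.5, 22.6 and 20.8 CPM to 1.88, 1.19 and 1.35 CPM. This was a 13.3-fold fall with no overlap (log2 fold change -3.73 ± 0.29, edgeR adjusted p = 1.63e-11), and the other 6 Sm core genes tested did not pass. TFB1 (YDR311W, IV:1085065-1086993), a subunit of the general transcription factor TFIIH, went from 16.6, 23.3 and 24.5 CPM to 1.2, 2.67 and 2.70 CPM. TFB1 was alone among 10 TFIIH genes in passing the test, with a 9.7-fold fall (log2 fold change -3.28 ± 0.31, edgeR adjusted p = 7.02e-10) that followed an earlier drop to 25.0% of the 0 min mean at 10 min.

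MGE1 (YOR232W), the nucleotide exchange factor of the mitochondrial Hsp70, went from 28.6, 39.2 and 51.4 CPM to 4.63, 5.04 and 6.06 CPM, a 7.61-fold fall (edgeR adjusted p = 5.16e-10). MRP49 (YKL167C), a protein of the large mitochondrial ribosomal subunit, went from 12.9, 16.5 and 18.9 CPM to 1.2, 1.19 and 1.35 CPM, a 12.8-fold fall (edgeR adjusted p = 2.48e-11). Neither gene had overlapping groups. STF1 (YDL130W-A), which stabilises the inhibitor of the mitochondrial ATP synthase, was more scattered, at 18.5, 36.0 and 39.9 CPM against 0.857, 4.89 and 2.53 CPM, with an 11.2-fold fall (edgeR adjusted p = 1.21e-07). RSM27 (YGR215W) of the small mitochondrial subunit had 5.12, 6.12 and 10.4 CPM at 10 min and 0.685, 0.889 and 0.842 CPM at 40 min (edgeR adjusted p = 2.75e-05). IMG2 (YCR071C) of the large subunit had 4.59, 6.31 and 9.29 CPM at 10 min and between 1 and 5 counts per library at 40 min, so that its 40 min level is close to the 3-count floor. The U4 small nuclear RNA gene SNR14 likewise went from 20 to 112 counts per library to 2 or 3, and no fold is given for it.

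A large fall with closely placed replicates was in VID27 (YNL212W, XIV:247461-249809, plus strand). Its CPM was 288, 298 and 300 at 10 min and 36.8, 37.9 and 42.1 at 40 min. Replicates of each time lay within a narrow band and the fall was 7.57-fold (log2 fold change -2.92 ± 0.11, edgeR adjusted p = 1.14e-18). Among the most abundant transcripts that fell, GCN1 (YGL195W), which activates the kinase Gcn2 on stalled ribosomes, went from 1128, 1064 and 1050 CPM to 358, 324 and 345 CPM (3.16-fold, edgeR adjusted p = 8.05e-14). XRN1 (YGL173C), the main cytoplasmic 5′ to 3′ exoribonuclease, went from 810, 836 and 822 CPM to 533, 436 and 447 CPM (1.74-fold, edgeR adjusted p = 2.3e-06). Both had separate groups. FMP27 (YLR454W) was at 1077, 1013 and 870 CPM and then at 572, 476 and 425 CPM, a 2.01-fold fall (edgeR adjusted p = 2.71e-06). FET3 (YMR058W), the ferroxidase of high-affinity iron uptake, was the most abundant gene called lower, at 1972, 1041 and 848 CPM against 756, 734 and 703 CPM (log2 fold change -0.82 ± 0.21, edgeR adjusted p = 0.00788). Its 10 min replicate 1 was far above the other libraries, and without that library the log2 fold change was -0.35 (edgeR adjusted p = 0.41). The FET3 call was also lost without any single 40 min library (edgeR adjusted p between 0.0241 and 0.0492).

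**Figure D2:**
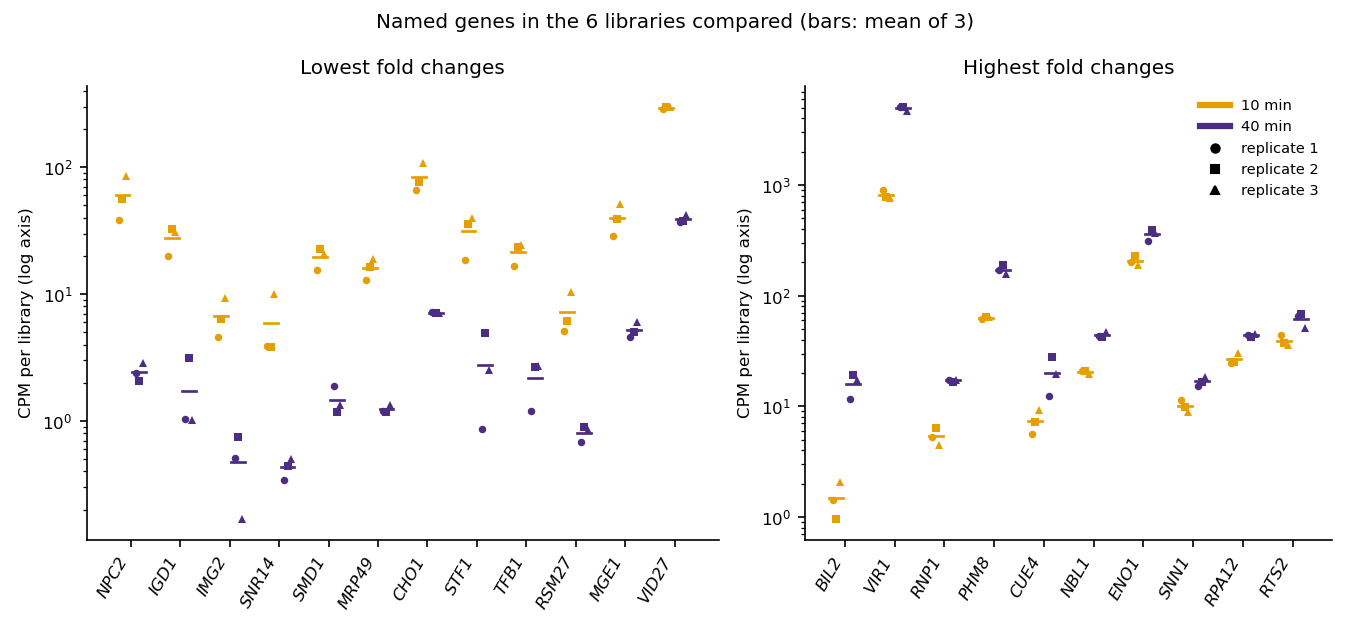
CPM in each of the 6 libraries (log axis) for the 12 named genes with the lowest fold changes (left) and the 10 with the highest (right). Orange marks are 10 min and purple marks 40 min, the symbol gives the replicate number, and the bar is the mean of 3. In each of the 22 genes shown all 3 libraries of one time lie on one side of all 3 of the other, which was a condition for choosing them.

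The promoters of the lower genes often held the core Abf1 sequence. The motif, TCA and ACG separated by 6 bases of any kind, was searched on both strands of the 250 bases before each start codon. It was found before 216 of 305 lower protein-coding genes (70.8%), 3 of 14 higher genes (21.4%) and 755 of all 5603 tested protein-coding genes (13.5%). Its share was 81% (34 of 42) for genes that fell more than 4-fold, 76.4% (110 of 144) for falls of 2- to 4-fold, 60.5% (72 of 119) for smaller falls and 10.1% (536 of 5284) for genes not called. The form with A directly before TCA was found before 51.8% of the lower genes and 7.64% of all genes, and the form with G there before 18% and 3.05%. Both forms are contained in the count of the core. The match lay a median of 155 bases before the start codon in the lower genes and 156 bases in all genes with a match. The 30 bases around the single match are printed for the 10 of the deeply fallen genes above that have one and for POM152 and NUP49, described further on, to show how the spacer between the fixed letters varies. IGD1, GCN1, XRN1, FMP27 and FET3 had no match in this window. Each is read 5′ to 3′ along the strand that carries the match, from the R64 assembly, with the fixed letters in capitals.
NPC2: gccgaaacgTCAcctcccACGgtttggatc
CHO1: tggtcaaaaTCActttgaACGttcacacgg
SMD1: attgaaaaaTCAttaaatACGaaactcaga
TFB1: gcagccttaTCAtgtcccACGggttgtggc
MGE1: attaaaataTCActgaatACGtatgccaaa
MRP49: agtcctagaTCActttgaACGtcccagtct
STF1: tgataatgaTCActatatACGtcaaatgat
RSM27: tgttttagaTCActatatACGctacgtgtt
IMG2: ctataatggTCAtcgcgtACGaatggcttg
VID27: gctttatgaTCAttttagACGactgtggga
POM152: tattttatgTCAttatatACGtagtcaata
NUP49: ttgtatataTCActcaacACGgaatgtatt
CHO1 and MRP49 share the spacer ctttga, and STF1 and RSM27 share the spacer ctatat. The windows lie at chrIV:371052-371081 (plus strand, 173 bases before the start codon) for NPC2, chrV:208656-208685 (minus, 196) for CHO1, chrVII:635579-635608 (minus, 118) for SMD1 and chrIV:1084920-1084949 (minus, 130) for TFB1. They lie at chrXV:774340-774369 (minus, 218) for MGE1, chrXI:134231-134260 (plus, 111) for MRP49, chrIV:228976-229005 (plus, 180) for STF1 and chrVII:922014-922043 (minus, 146) for RSM27. They lie at chrIII:240662-240691 (minus, 133) for IMG2, chrXIV:247268-247297 (plus, 178) for VID27, chrXIII:527644-527673 (plus, 145) for POM152 and chrVII:180553-180582 (plus, 132) for NUP49. A match is a description of the letters and not a measured binding site.

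Genes that share a promoter region with a lower gene were themselves lower more often than the background. Of the 309 lower genes, 147 had a neighbour transcribed away from the same upstream region, 143 of these neighbours were tested, and 50 were lower (35%), against 5.26% of 2720 such neighbours over all tested genes. For upstream neighbours on the same strand the count was 9 of 161 (5.59%), against 5.14% of 2625. The 50 neighbours formed 25 pairs with both genes lower, the gap between start codons ranged from 235 to 608 bases with a median of 340, and all 25 gaps held a motif match. A match before either gene of a pair was counted, so more sequence was searched than for a single gene. The share over all divergent gaps was not computed. VID27 formed such a pair with RRG9 (log2 fold change -1.33), and the window printed for VID27 lies between them. XRN1 and the nucleoporin gene NUP49 formed another, with 586 bases between them. The pair with the deepest joint fall was SNF8 (-2.58), a subunit of the ESCRT-II sorting complex, and HAT1 (-2.32), a histone acetyltransferase. Its site, shown for that reason after the values were seen, lies at chrXVI:554452-554481 on the minus strand.
SNF8 and HAT1: atatatttaTCActtataACGgtgtgctat
The strand setting of the counting was not given in the sources used here, so reads from overlapping transcripts of neighbouring genes may be shared.

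In every gene list examined most members were not called. Over all features tested 5.4% were lower and 0.245% higher. The lists were chosen with earlier results of these data known, so a larger share in a list is a description. Beside the 0.0026 of all features, the list medians lay between -0.37 and 0.18, while single members fell deeply. Among 33 proteasome genes, including the gene of their activator Rpn4, 7 were lower (21.2%, against 5.4% of all features) and none higher. RPN8 (YOR261C), a subunit of the regulatory lid, went from 148, 163 and 152 CPM to 43.3, 37.6 and 39.6 CPM, a 3.84-fold fall (log2 fold change -1.94 ± 0.12, edgeR adjusted p = 3.42e-14). RPN1 (YHR027C), a scaffold of the regulatory base, went from 756, 805 and 765 CPM to 244, 232 and 230 CPM, a 3.29-fold fall (edgeR adjusted p = 1.1e-17). In both genes the gap between the groups exceeded the range within either. SCL1 (YGL011C), an alpha subunit of the core particle, went from 63.5, 75.8 and 86.3 CPM to 19.5, 24.6 and 24.6 CPM. The remaining 4 were PRE10 (-1.33), PRE8 (-0.84), PUP2 (-0.78) and RPN13 (-0.78).

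Of 44 genes of nuclear pore proteins and karyopherins, the carriers of nuclear transport, 9 were lower (20.5%, against 5.4% of all features). POM152 (YMR129W, XIII:527804-531817), a membrane ring protein of the pore, went from 327, 319 and 306 CPM to 86.7, 68.0 and 79.3 CPM, a 4.07-fold fall (log2 fold change -2.02 ± 0.08 SE, edgeR adjusted p = 8.2e-18). SRP1 (YNL189W), the importin alpha of yeast, went from 191, 228 and 198 CPM to 50.9, 51.3 and 56.8 CPM (-1.96, edgeR adjusted p = 1.82e-17). NUP49 (YGL172W), a central channel nucleoporin, went from 82.1, 105 and 95.9 CPM to 39.4, 37.5 and 39.1 CPM (-1.29, edgeR adjusted p = 4.15e-12). None of these groups overlapped. The carriers KAP123 (-1.16) and KAP120 (-0.66) and the nucleoporins NUP57 (-0.95), NUP159 (-0.86), NUP84 (-0.63) and NUP170 (-0.62) made up the rest.

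Among 37 nuclear genes of the respiratory chain and ATP synthase, 7 were lower (18.9%, against 5.4% of all features), with a list median of -0.11. QCR9 (YGR183C) of the cytochrome bc1 complex went from 21.4, 21.2 and 25.2 CPM to 4.11, 6.08 and 4.04 CPM (4.74-fold, edgeR adjusted p = 2.63e-08). ATP14 (YLR295C) of the ATP synthase went from 88.1, 97.8 and 101 CPM to 25.0, 17.6 and 22.2 CPM (4.43-fold, edgeR adjusted p = 1.09e-11), and ATP16 (YDL004W) went from 28.4, 29.5 and 40.1 CPM to 7.88, 9.04 and 8.93 CPM. The others were ATP15 (-1.11), COX6 (-0.97), QCR2 (-0.82) and ATP2 (-0.64), so that 4 of the 7 encode parts of the ATP synthase. Of 56 mitochondrial ribosomal protein genes of the list, 6 were lower (10.7%) and the list median was -0.01. The list holds only symbols made of MRP, MRPL or MRPS and a number, so RSM27 and IMG2, described above, are not in it. MRPS9 (YBR146W) was at 73.6, 99.1 and 101 CPM against 21.4, 29.1 and 34.2 CPM (edgeR adjusted p = 7.81e-10). MRPL28 (YDR462W) went from 16.8, 21.6 and 18.6 CPM to 4.63, 6.97 and 6.74 CPM. The other 4 were MRP49 (described above), MRP51 (-1.42), MRPL36 (-1.08) and MRP20 (-1.05).

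Genes of the RNA polymerase I and III machinery went in both directions, with 5 of 41 lower (12.2%, against 5.4% of all features) and 1 higher. RPO31 (YOR116C), the largest subunit of RNA polymerase III, went from 396, 309 and 316 CPM to 109, 101 and 98.0 CPM, a 3.31-fold fall (log2 fold change -1.73 ± 0.11, edgeR adjusted p = 1.45e-13). RPC40 (YPR110C) and RPC19 (YNL113W) encode subunits common to polymerases I and III. RPC40 went from 76.4, 73.5 and 70.8 CPM to 39.9, 26.4 and 29.1 CPM (edgeR adjusted p = 0.000265), and RPC19 went from 28.4, 35.4 and 29.3 CPM to 11.3, 6.67 and 12.3 CPM (edgeR adjusted p = 7.41e-05). Neither overlapped between times. RPO26 (-0.86) and RPB8 (-0.72), subunits of all 3 nuclear polymerases, were also lower. The higher gene was RPA12 (YJR063W), a polymerase I subunit, at 24.7, 25.1 and 30.4 CPM against 44.2, 42.2 and 44.6 CPM (1.63-fold, edgeR adjusted p = 0.0041). The RPA12 call was lost without 10 min replicate 1 or 2 or 40 min replicate 1 or 3 (edgeR adjusted p between 0.0147 and 0.027), and without the tagged replicate 1 libraries that p was 0.0776.

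Of 87 ribosome biogenesis factors, 10 were lower (11.5%, against 5.4% of all features) and 72 had a negative log2 fold change, with a median of -0.13. BRX1 (YOL077C), needed for the large subunit, was at 38.7, 42.3 and 46.9 CPM and then at 18.2, 13.0 and 18 CPM (log2 fold change -1.38, edgeR adjusted p = 4.5e-05). NOC2 (YOR206W), which acts in the transport of pre-ribosomes, was at 142, 161 and 156 CPM and then at 77.8, 43.4 and 63.0 CPM (-1.32, edgeR adjusted p = 1.96e-05). RRP1 (YDR087C), another large-subunit factor, was at 14.3, 13.4 and 16 CPM and then at 8.05, 4.45 and 6.57 CPM. In each of these 3 genes the 40 min replicate 2 was the lowest library. RRP1 was not called without it (edgeR adjusted p = 0.0184). The count of 10 became 4 without that library and 4 with the 6 libraries fitted alone. Among 138 cytosolic ribosomal protein genes 134 had a negative log2 fold change, with a list median of -0.33, but RPL4B (YDR012W) alone passed, at 60.5, 52.2 and 50.3 CPM against 31.5, 24.6 and 27.3 CPM (edgeR adjusted p = 0.00127). RPL4B was not called without 10 min replicate 1, 40 min replicate 2 or 40 min replicate 3 (edgeR adjusted p between 0.0121 and 0.0245). Reads of near-identical paralogs such as RPL4A and RPL4B may also have been split in counting.

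Enzymes of amino acid synthesis included 5 lower genes of 47 (10.6%, against 5.4% of all features). ARO3 (YDR035W), the DAHP synthase that begins aromatic synthesis, went from 29.1, 32.9 and 39.8 CPM to 7.02, 4.60 and 3.03 CPM (6.98-fold, edgeR adjusted p = 2.44e-08). TRP3 (YKL211C) of tryptophan synthesis went from 38.3, 43.1 and 46.1 CPM to 10.8, 8 and 12.5 CPM (4.10-fold, edgeR adjusted p = 1.89e-10). Both had separate groups, and both belong to a list of 21 genes whose promoters are textbook Abf1 sites. Of that list 6 were lower (28.6%), namely ARO3, TRP3, RPO31, RPC40, COX6 and the arginase gene CAR1 (-0.82), and its median was -0.32. THR4 (YCR053W), threonine synthase, went from 125, 152 and 160 CPM to 49.8, 52.0 and 58.3 CPM (2.73-fold, edgeR adjusted p = 9.61e-10). ASN1 (-1.28) and TRP2 (-1.04) completed the 5.

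Other lists held few calls. The share called lower was 5.56% of coat genes and 4.76% of chaperone genes, both close to the 5.4% of all features. It was 9.09% of the regulator genes, 10.7% of the sterol genes and 15.4% of the phosphate genes, each resting on few genes. SEC16 (YPL085W), the scaffold of COPII vesicle exit sites and the sole call among 18 coat genes, went from 257, 353 and 386 CPM to 80.2, 68.8 and 84.7 CPM (4.27-fold, edgeR adjusted p = 7.77e-10). SSE2 (YBR169C), an Hsp110 exchange factor and the sole call among 21 chaperone genes, went from 154, 364 and 370 CPM to 54.8, 59.4 and 46.3 CPM (5.52-fold, edgeR adjusted p = 2.78e-07). The 10 min replicate 1 of SSE2 was well below the other 10 min libraries and still above all 40 min libraries. FHL1 (YPR104C), a regulator of ribosomal protein genes and the sole call among 11 general regulatory factor and ribosomal regulator genes, went from 116, 134 and 116 CPM to 82.6, 58.8 and 69.2 CPM (edgeR adjusted p = 0.000185). The FHL1 call was lost with the 6 libraries fitted alone (edgeR adjusted p = 0.015) and with the replicate block on those 6 (0.0102). Of 28 sterol genes NPC2, HMG2 and ERG10 were lower. HMG2 (YLR450W), an HMG-CoA reductase, went from 46.4, 29.3 and 36.7 CPM to 25.5, 15.9 and 16.2 CPM (edgeR adjusted p = 0.00222) after most of its loss had come before 10 min. ERG10 (YPL028W), the acetoacetyl-CoA thiolase, went from 74.1, 88.6 and 72.5 CPM to 39.7, 46.0 and 57.1 CPM (1.65-fold, edgeR adjusted p = 8.11e-05). Among 13 phosphate genes PHO2 (YDL106C), the homeodomain partner of Pho4, went from 263, 258 and 256 CPM to 150, 140 and 133 CPM (1.83-fold, edgeR adjusted p = 2.28e-06), and VTC1 (YER072W) of the polyphosphate polymerase went from 26.5, 29.1 and 41.4 CPM to 11.1, 17.8 and 15.8 CPM. The call of HMG2 was lost without 10 min replicate 1, 40 min replicate 2 or 40 min replicate 3 (edgeR adjusted p between 0.038 and 0.0466). That of VTC1 was lost without 10 min replicate 3 or 40 min replicate 1 (edgeR adjusted p of 0.0177 and 0.0111).

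No member was called among 18 G1/S genes, 16 G2/M and M/G1 genes, 8 core histone genes, 28 environmental stress genes, 29 autophagy genes or 19 tRNA genes. Only these 19 of 299 tRNA genes had enough counts to be tested. At an unadjusted edgeR p under 0.05 these 6 lists together held 1 lower and 4 higher members, and DESeq2 called 0 lower and 0 higher, and 1 was lower with the replicate number as a block. Among 77 small nuclear and nucleolar RNA genes 4 were lower (SNR13, SNR14, SNR56 and SNR57), a share of 5.19% that is close to the 5.4% of all features, with all 4 averaging below 1 CPM at 40 min, and the median of the list was -0.37. That count was 2 without 10 min replicate 3 or 40 min replicate 2. Labelled RNA of ABF1 itself, whose protein is moved and whose gene is intact, was at 921, 965 and 858 CPM at 10 min and 1009, 753 and 887 CPM at 40 min. These groups overlapped with no called change (log2 fold change -0.05 ± 0.12, edgeR adjusted p = 0.972). TOR1 overlapped too, with a log2 fold change of 0.02. SRB2 (YHR041C), NCP1 (YHR042W) and OCA5 (YHL029C) were named because the study singles out their promoters for the residence time of Abf1. SRB2 and NCP1 had overlapping groups, each with a log2 fold change of -0.04. OCA5 went from 148, 135 and 149 CPM to 66.3, 38.5 and 48.5 CPM, a 2.82-fold fall without overlap (edgeR adjusted p = 3.14e-07).

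**Figure D3:**
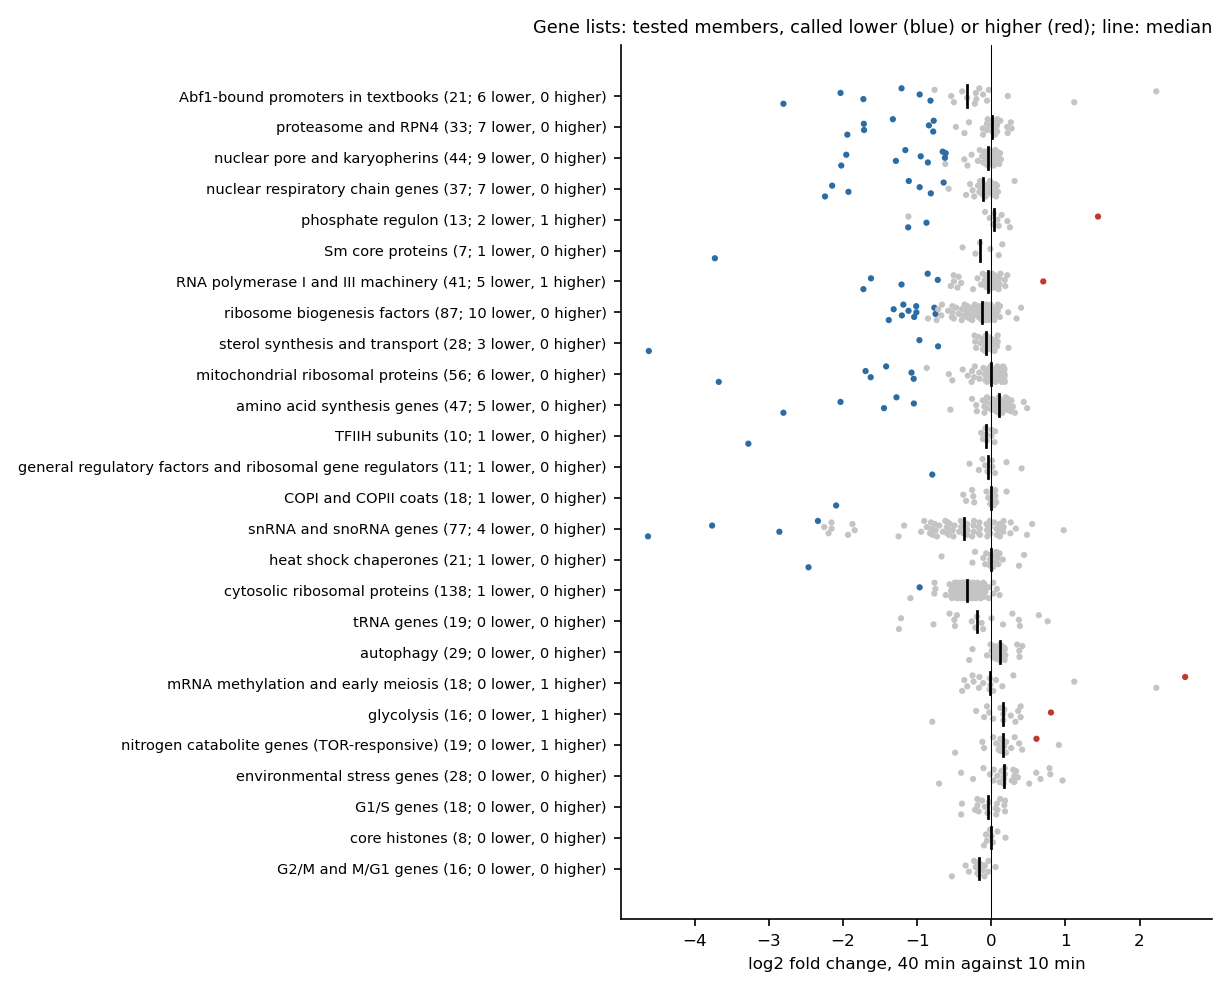
Log2 fold change between 40 and 10 min (horizontal axis) of every tested member of each gene list (rows, with the number tested and called). Blue points were called lower, red points higher and grey points not called, and the vertical bar is the median of the list. Most medians lie near 0 while single members reach far to the left, as SMD1 at -3.73 among the Sm core genes and TFB1 at -3.28 among the TFIIH genes.

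The 14 higher genes were led by VIR1 in abundance and, among the named genes, by BIL2 in fold. VIR1 was the sole call among 18 genes of mRNA methylation and early meiosis. VIR1 (YGL036W, VII:428601-431330, plus strand), a partner of the mRNA methyltransferase of meiotic cells, went from 898, 776 and 763 CPM to 5108, 5116 and 4703 CPM. All 3 libraries at 40 min were more than 5 times above any 10 min library, and the rise was 6.13-fold (log2 fold change 2.62 ± 0.12 SE, edgeR adjusted p = 1.62e-16). BIL2 (YGL015C, VII:465043-465435, minus strand) went from 1.41, 0.957 and 2.05 CPM to 11.6, 19.3 and 17.2 CPM, a 10.1-fold rise from 5 to 23 counts per library (edgeR adjusted p = 3.6e-08). RNP1 (YLL046C), which encodes a protein with RNA recognition motifs, went from 5.30, 6.31 and 4.47 CPM to 17.5, 16.7 and 17.2 CPM (3.23-fold, edgeR adjusted p = 1.76e-05). These 3 were also the higher genes with a core motif match, in each case in the form with G directly before TCA. The windows fall outside the rule for printed sites and were chosen after the values were seen.
VIR1: atccatatgTCAttgttaACGtcttccgtt
BIL2: atgtatttgTCActcttgACGattgttttt
RNP1: gaatcagcgTCActgtcgACGatacaacaa
They lie at chrVII:428372-428401 (minus strand, 214 bases before the start codon), chrVII:465591-465620 (plus, 170) and chrXII:47643-47672 (minus, 194).

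PHM8 (YER037W), a nucleotidase and lysophosphatidic acid phosphatase of the phosphate regulon, went from 61.1, 64.5 and 64.3 CPM to 170, 189 and 156 CPM (2.71-fold, edgeR adjusted p = 9.89e-11). NBL1 (YHR199C-A), the borealin-like subunit of the chromosomal passenger complex, went from 20.7, 21.0 and 19.6 CPM to 42.8, 42.7 and 47.0 CPM (2.17-fold, edgeR adjusted p = 1.7e-06). Both were tightly grouped at each time. ENO1 (YGR254W), an enolase and the sole call among 16 glycolytic genes, went from 201, 228 and 188 CPM to 315, 390 and 370 CPM (1.75-fold, edgeR adjusted p = 0.00116), and it shares near-identical sequence with ENO2. CUE4 (YML101C) was scattered, at 5.65, 7.27 and 9.20 CPM against 12.3, 28.0 and 19.5 CPM (edgeR adjusted p = 0.00368). The smaller rises were in SNN1 (YNL086W) of the BLOC-1 complex (1.67-fold), RTS2 (YOR077W), a basic zinc-finger protein (1.58-fold), and DUR3 (YHL016C), a urea and polyamine permease and the sole call among 19 nitrogen catabolite genes (1.53-fold). DUR3 was at 28.4, 20.9 and 19.1 CPM and then at 35.8, 35.1 and 32.8 CPM. These smaller rises lost their calls without single libraries, while their log2 fold changes kept their sign and stayed near the full value (0.74 for ENO1, 1.12 to 1.40 for CUE4, 0.65 to 0.73 for SNN1, 0.59 to 0.63 for RTS2 and 0.49 to 0.66 for DUR3). The call was lost for ENO1 without 10 min replicate 3 (edgeR adjusted p = 0.0134), for CUE4 without 10 min replicate 1 or 2 or 40 min replicate 2 (0.0186 to 0.0519), and for SNN1 without 10 min replicate 2 or 3 or 40 min replicate 3 (0.0175 to 0.0464). It was lost for RTS2 without 10 min replicate 2 or 3 or 40 min replicate 1 or 2 (0.0264 to 0.043), and for DUR3 without any single library except 10 min replicate 1 (0.0109 to 0.0881). SPO19 (log2 fold change 3.31), YER188C-A (1.41) and YBR284W (0.61) complete the 14, and the first of them averaged 0.432 CPM at 10 min.

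The 12 libraries of the times around the pair (30 and 50 min against 5 and 15 min), which share no library with it, showed the same directions. There 345 features were lower (6.03%) and 33 higher (0.577%), and 61 were higher with the replicate number as a block. Of the 309 lower genes 286 were also lower, which is 92.6% of them and 82.9% of the 345, and all 309 had a negative log2 fold change with a median of -1.03. Of the 14 higher genes 11 were also higher, which is 78.6% of them and 33.3% of the 33, and all 14 were positive with a median of 0.88. VIR1 had a log2 fold change of 2.28 there and NPC2 one of -4.15.

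In the untagged WT strain 90 min of rapamycin gave no call, 0 lower (0%) and 0 higher (0%) by edgeR and by DESeq2, with 280 lower (4.89%) and 224 higher (3.91%) features at an unadjusted edgeR p under 0.05. Of the 309 lower genes 12 were lower and 8 higher at that unadjusted p, and of the 14 higher genes 0 were either. The median log2 fold change there was -0.016 over the 309 lower genes and -0.055 over the 14 higher genes. The cytosolic ribosomal protein genes had a WT median of 0.21, opposite in sign to their -0.33 between 10 and 40 min in the tagged strain, a difference that was not tested.

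**Figure D4:**
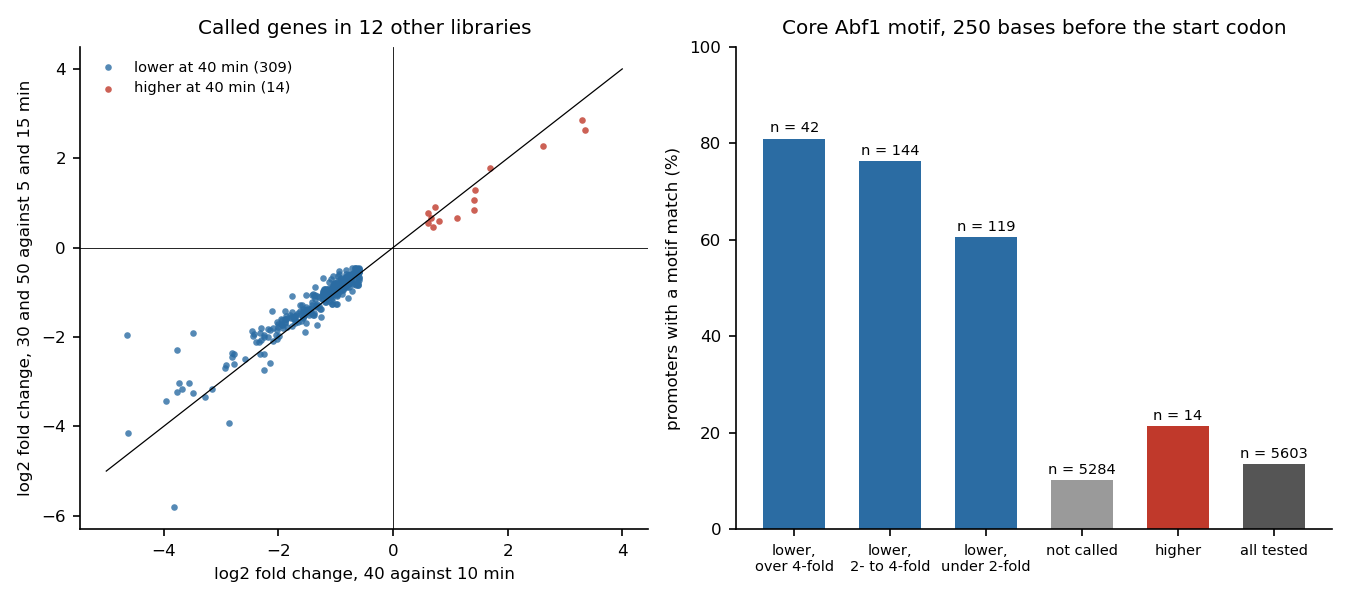
Left, log2 fold change of the called genes at 40 against 10 min (horizontal axis) and in 12 other libraries, 30 and 50 against 5 and 15 min (vertical axis), with blue for lower, red for higher and the diagonal marking equal values. Right, percent of promoters with the core motif (TCA, 6 bases of any kind, ACG) in the 250 bases before the start codon, by fold class, with the number of genes above each bar. All 309 blue points lie below 0 and all 14 red points above it in the other libraries, and the bars run from 81% for falls over 4-fold to 10.1% for genes not called.

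The mean CPM of each gene as a percent of its 0 min mean placed the 10 to 40 min change within the whole course. The comparisons with 0 min share the 10 and 40 min libraries with the pair, so their values are given side by side only. For the 309 lower genes the medians at 5, 10, 15 and 20 min were 87.7%, 71.1%, 48.6% and 39.1%, and those at 30 and 40 min were 32.2% and 29.8%. The median then stayed between 29.0% and 31.3% up to 90 min, so that the 40 min level was close to the lowest reached. At 10 min 248 of the 309 genes (80.3%) had not yet fallen to 50% of their 0 min mean. The median share of the 10 to 40 min fall that was complete at 15, 20 and 30 min was 52.9%, 79.0% and 94.3%. For the higher genes the median share of the rise complete at those times was 25.8%, 42.7% and 73.7%. Their median level was 313% of the 0 min mean at 40 min and 369% at 90 min. Shares taken on CPM run ahead for a fall and behind for a rise, compared with shares taken on a log scale. These shares therefore cannot show by themselves that the higher genes moved more slowly, and a difference in speed was not tested.

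The label of slow response thus described most but not all of the genes. At 10 min 61 genes (19.7%) stood at or below 50% of their 0 min mean, 210 (68.0%) between 50% and 90%, and 38 (12.3%) at or above 90%. The first class fell further, with a median log2 fold change of -1.51 and 12.1% of the 0 min mean left at 40 min, the second had a median of -1.10 and 32.0% left, and the last a median of -0.96 and 49.6% left. The core motif was found before 39 of 57 (68.4%), 162 of 210 (77.1%) and 15 of 38 (39.5%) of their protein-coding genes. These classes were drawn from the 10 min libraries that also enter the fold change, so the order of the medians is a description.

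Single genes showed how different the courses were. TFB1, SEC16 and ARO3 stood at 25.0%, 29.8% and 29.3% of their 0 min means at 10 min and at 9.09%, 11.9% and 11.6% at 15 min. RPN8 and POM152 were still at 80.3% and 78.3% at 10 min, reached 51.8% and 55.9% at 15 min, and ended at 20.9% and 19.3% at 40 min. The BRX1 mean was no lower at 15 min (77.6%) than at 10 min (72.7%), and it had dropped to 28.0% by 40 min. FMP27 and PHO2 were at 105% and 98.2% at 10 min and at 52.5% and 53.6% at 40 min, with no earlier loss. Among the higher genes, the levels of VIR1 at 10, 15, 20 and 40 min were 138%, 231%, 386% and 843%. PHM8 had made 7.01% of its 10 to 40 min rise at 15 min and 78.1% at 30 min, whereas RPA12 had made 55.0% at 15 min.

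**Figure D5:**
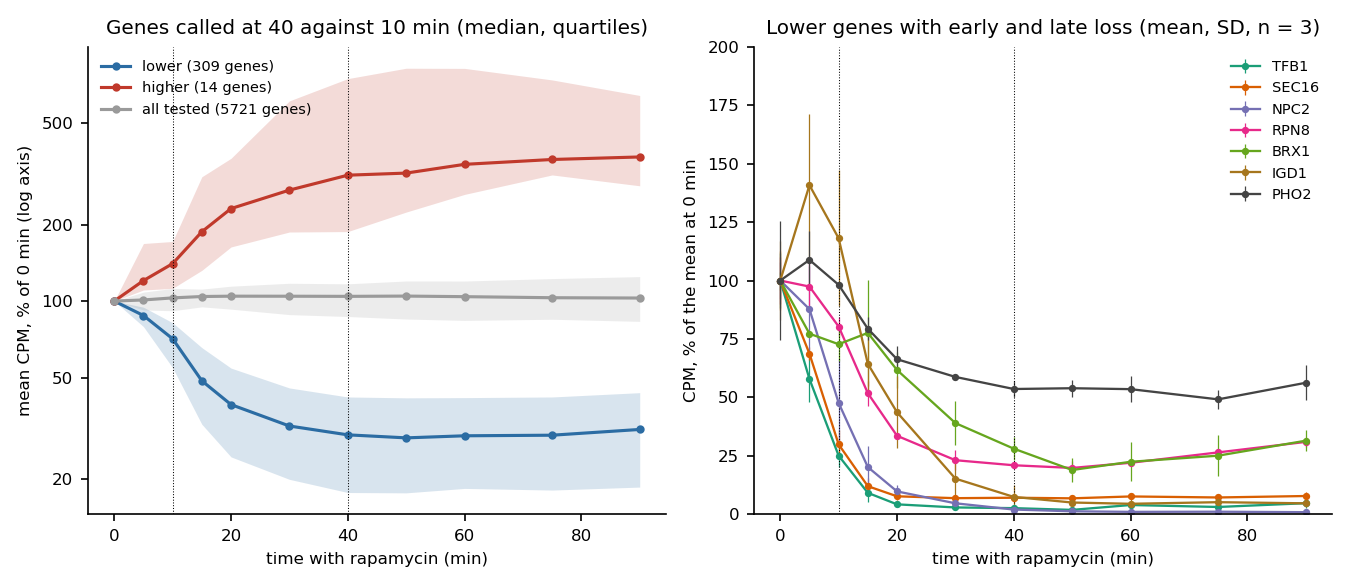
Left, median and quartiles of mean CPM as a percent of 0 min (log axis) against time with rapamycin for the 309 lower genes, the 14 higher genes and all tested features with counts at 0 min, where dotted lines mark 10 and 40 min. Right, mean and SD (n = 3) of CPM as a percent of the 0 min mean for 7 lower genes. The lower median goes from 71.1% at 10 min to 29.8% at 40 min and then stays level. TFB1 and SEC16 are low by 10 min, and IGD1 and PHO2 fall after it. BRX1 is at 72.7% at 10 min and falls further after 15 min.

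At 10 min 61 of the 309 stood at or below 50% of their 0 min mean and 210 between 50% and 90% of it. The 10 min libraries also entered the choice of the 309, whereas the 0 and 5 min libraries did not. Between 0 and 5 min 29 features were lower (0.507%) and 0 higher (0%, with 3.43% or 196 at an unadjusted edgeR p under 0.05, and 3 called by DESeq2), and 8 of the 309 were among the 29 (2.59% of the 309 and 27.6% of the 29), while 87 of the 309 were lower and 2 higher at an unadjusted edgeR p under 0.05, 262 had a negative log2 fold change and their median was -0.19. When the genes lower at 40 min were called again in the same way, the shared count was 22 with the replicate number as a block and 18 with DESeq2. Between 50 and 90 min, in libraries not used for the pair, 20 features were lower (0.35%) and 37 higher (0.647%) by edgeR, 0 of the 309 fell further (17 at an unadjusted edgeR p under 0.05), 6 of them rose (61 at that unadjusted p), and their median was 0.08. Calling both intervals by DESeq2 gave 0 genes lower in both, and calling both with the block gave 1. RPN1 rose by 0.57 on the log2 scale from 50 to 90 min (edgeR adjusted p = 6.24e-06), below the fold threshold, and RPN8 rose by 0.64 (edgeR adjusted p = 0.00126). Of the 14 higher genes only DUR3 was called again from 50 to 90 min, with a log2 fold change of 0.72 (edgeR adjusted p = 0.00266), and it reached 335% of its 0 min mean at 90 min. VIR1 went the other way after 50 min, with a log2 fold change of -0.43 that did not pass (edgeR adjusted p = 0.0227).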

How the data were processed

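Labelled RNA was sequenced from 39 yeast cultures, 3 per group. The submitters' processing notes name HISAT2 2.0.5, featureCounts of Subread 1.6.5 and DESeq2 1.10.1, with the sacCer3 genome. The authors deposited raw counts per feature, deduplicated by molecular identifier and summed over sequencing runs. Their deposited comparison columns, which hold log2 fold changes and adjusted p-values, were not used. The strand setting of counting was not given in the sources used here, so overlapping, antisense and near-identical genes are uncertain.

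The counts as deposited were tested in R 4.3.3 with edgeR 4.0.16 (quasi-likelihood, TMM scaling, all 39 libraries in one fit without a replicate term). Features passing filterByExpr with a minimum count of 10 were tested (5722, holding 99.99% of counts), and Benjamini-Hochberg adjusted p under 0.01 with a fold over 1.5 made a call. Common biological variation was 15.6%. Limma 3.58.1 and DESeq2 1.42.0 were also used. No spike-in was used for scaling, so values are relative to total labelled RNA. Totals of 3500982 to 11266408 counts set the precision, and floors cover counting error only.

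The members and gene lists were chosen with earlier results of these data known. Named genes were the 12 lowest and 10 highest log2 fold changes, the 4 most abundant in each direction and up to 3 per list, among called genes whose 3 libraries of one time all lay beyond those of the other and whose mean count in the higher group was at least 50, with ABF1, FPR1, TOR1, SRB2, NCP1 and OCA5 in addition. Same-numbered replicates deviated together (correlations of 0.634, 0.199 and 0.349 over 4717 genes). Replicates 2 and 3 were not separated by this check, with 0.307 and 0.318 across their numbers, against -0.494 to -0.357 for pairs of replicate 1 with another number. All 3 same-number values exceeded 0.1, but so did those across replicates 2 and 3. The check thus set replicate 1 apart and could not decide the pairing of replicates 2 and 3. The main fit and its p-values are unpaired, and the fit with the replicate block was run as an alternative. No library pair agreed within sampling noise (chi-square per degree of freedom 10.7 to 38.7). Alternatives were another scaling, no filter, DESeq2, fewer libraries, the block, thinned counts, leaving out each replicate, and, chosen after seeing the data, no tagged replicate 1 libraries. Motifs and sites came from the R64 assembly, to which 6142 of 6420 identifiers matched. The test across genes was checked on simulated data.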

Additional observations from a re-analysis of the deposited data

Results flagged for a closer look

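From 10 to 40 min 6 genes fell that rose from 50 to 90 min, and the difference between these changes is given from the same edgeR fit. The value given first is the log2 change from 10 to 40 min minus that from 50 to 90 min. MPS1, a kinase of spindle pole duplication and the spindle checkpoint, had -2.95 (changes of -2.19 and 0.76, edgeR adjusted p of the difference 3.9e-12). MSC6 had -2.91 (-2.24 and 0.66, 1.76e-14). RPN8 of the proteasome lid had -2.58 (-1.94 and 0.64, 4.03e-13). CCT8 of the CCT chaperonin had -2.10 (-1.47 and 0.63, 3.35e-14). MGM1, the dynamin-like GTPase of mitochondrial fusion, had -1.95 (-0.72 and 1.23, 6.75e-09). PRE8 of the proteasome core had -1.72 (-0.84 and 0.88, 3.01e-06). All 6 were called in both intervals. They were picked for opposite calls, so a difference between the changes followed from the choice and its adjusted p is no added support. No cause was tested.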

How the results depend on the processing

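For the 60 named genes the direction and the call were the same under the other scaling, DESeq2 and the replicate block over all libraries. The block gave 344 lower and 20 higher features, with 307 and 14 of the original calls among them. The higher count of 14 became 6 with the 6 libraries alone and 9 with thinned counts, and 8 to 13 without single replicates. The lower count of 309 became 211 with the 6 libraries alone and 259 with the block on them, and ranged from 257 (without 40 min replicate 2) to 301 without single replicates. In the flanking times the 33 higher features became 61 with the block and 18 to 47 without single replicates (18 without 30 min replicate 2), and the number of genes called higher in both comparisons went from 11 to 18 when both were called with the block. With both comparisons called again, the count of 0 genes lower both from 10 to 40 and from 50 to 90 min became 1 with the block, and the count of 8 already lower at 5 min became 18 with DESeq2 and 22 with the block. Genes with a log2 fold change near 0 changed sign. Without single replicates ABF1 ranged from -0.16 to 0.086, TOR1 from -0.066 to 0.12, SRB2 from -0.15 to 0.10 and NCP1 from -0.077 to 0.030. With thinned counts ABF1 was at 0.0035 and NCP1 at 0.0043, TOR1 was at -0.02 without 40 min replicate 1, SRB2 was at 0.09 without 10 min replicate 1, and without the tagged replicate 1 libraries SRB2 was at 0.22. Causes of these shifts were not tested. Depth limits genes near 1 CPM, where 40 min values rest on a few counts.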

Other observations

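The 61 genes that were low in replicate 1 of the tagged strain at all 11 times included genes of mating and nucleotide synthesis. FAT3 ranged from 4.77 to 7.97 CPM in the replicate 1 libraries and from 33.7 to 92.9 CPM in replicates 2 and 3. IMD2, an IMP dehydrogenase, ranged from 2.21 to 5.97 CPM against 30.0 to 60.7 CPM. The alpha-factor gene MF(ALPHA)2 ranged from 71.8 to 228 CPM against 262 to 827 CPM. None of the 61 was at least 2-fold low in replicate 1 of both WT groups, where their median difference was -0.087 on the log2 scale. These genes were chosen after their values were seen.

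Several higher genes lie next to a lower gene. The share of such neighbours over all genes was not computed, so no excess over the 5.4% of all features called lower is claimed. NBL1 lies 148 bases from AIM46 (log2 fold change -0.59). RPA12 lies 341 bases from CCT5 (-1.85). SNN1 neighbours MKT1 (-1.03) and SPO19 neighbours TAF14 (-0.91). In these cases the lower gene lies downstream on the same strand. ENO1 differs, since its neighbour PUP2 (-0.78) lies upstream in the opposite direction across 1786 bases.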
